A study of Mus musculus with 12 samples.

Results

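The genes Dio1, Thra, Thrb and Slc16a10, which handle thyroid hormone, were followed through mouse liver with and without the clock gene Bmal1. They are 4 of the 22322 genes, and 11 of the 46585 transcripts, for which RPKM values (reads scaled to transcript length and to library depth) were deposited. Dio1 was chosen by its lower level in KO than in WT in these same samples, and the other 3 genes were added for their role with that result known. The differences of the 4 genes between genotypes, and the interaction of genotype and time of Dio1, which is built from them, are therefore given as descriptions with no test. The differences of the 4 genes between times and the interactions of the other 3 are tested. Those of Dio1 between times use the values that chose it, so their p-values are not independent of that choice.

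Liver RNA of C57BL/6 mice was sequenced at circadian time 0 h (CT0) and 12 h (CT12), in 3 WT and 3 KO samples at each time. All mice were described as 8 weeks old and had spent 2 days in complete darkness after a 12-h light and 12-h dark schedule. The WT mice were homozygous for a floxed Bmal1 gene (Bmal1 flox/flox). The KO mice carried the same floxed alleles with a Cre recombinase driven by a liver-specific promoter, and no Cre was stated for the WT mice, so an effect of Cre itself cannot be told apart from that of the deletion. The sample titles and the study's methods gave 3 mice per genotype and time, whereas the treatment text of the labels mentioned fewer. The p-values measure the spread between these samples.

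The thyroid gland secretes mainly the prohormone thyroxine (T4), and target tissues remove an outer-ring iodine to make the active triiodothyronine (T3). DIO1, type 1 deiodinase, is a selenoenzyme of liver and kidney that removes iodine from either ring and clears reverse T3 and sulfated hormone. Slc16a10 encodes MCT10, a carrier of T3 and aromatic amino acids. Thra and Thrb encode the nuclear receptors TRα and TRβ, which pair with retinoid X receptors and hold corepressors at target genes until T3 binds. TRβ is the main receptor of the hepatocyte, and Dio1 itself is a classical gene induced by T3 through TRβ.

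DIO1 carries selenocysteine in its active site, and the codon for it is a TGA, which otherwise ends translation. That codon is number 126 of the Dio1 coding sequence and lies in exon 2, at chr4:106970202-106970345 on the minus strand of the NCBIM37 (mm9) build. The exon is shown because only 1 of the 3 deposited Dio1 transcripts contains it. The sequence was read from the GENCODE vM1 transcript, with the selenocysteine codon in capitals.
Dio1 exon 2: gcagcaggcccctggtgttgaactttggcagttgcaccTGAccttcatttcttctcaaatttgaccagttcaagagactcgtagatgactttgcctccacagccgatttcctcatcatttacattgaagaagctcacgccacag

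BMAL1 binds E-box motifs, so the 250 bases before the annotated starts of the members were searched on both strands for CACGTG (the E-box), CACGTT (an E-box variant), TTATGTAA (a D-box) and AGGTCA (the half-site of thyroid hormone and other nuclear receptors). The sequences came from the RefSeq table for GRCm38.p6, a different build from that of the RPKM values, and Thra had no entry. The Dio1 window, chr4:107307169-107307418 on the minus strand, held none of the 4 motifs, nor did that of Slc16a10. The window of the upstream Thrb start, chr14:17660710-17660959 on the plus strand, held AGGTCA 184 bases before the start. The window of the downstream Thrb start, chr14:17981394-17981643 on the plus strand, held CACGTG 193 bases before the start. Of all 32851 windows of this length, 6.02% held CACGTG, 3.85% CACGTT, 0.82% TTATGTAA and 14.02% AGGTCA. These matches describe letters only, and nothing was measured about binding. The windows of Dio1, the gene with the lower level, and of both Thrb starts are shown with the matches in capitals.
Dio1: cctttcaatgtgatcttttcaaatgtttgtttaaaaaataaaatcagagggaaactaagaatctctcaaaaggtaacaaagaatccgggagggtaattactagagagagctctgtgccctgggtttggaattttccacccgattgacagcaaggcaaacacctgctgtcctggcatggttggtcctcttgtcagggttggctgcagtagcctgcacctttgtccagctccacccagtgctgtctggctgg
Thrb upstream start: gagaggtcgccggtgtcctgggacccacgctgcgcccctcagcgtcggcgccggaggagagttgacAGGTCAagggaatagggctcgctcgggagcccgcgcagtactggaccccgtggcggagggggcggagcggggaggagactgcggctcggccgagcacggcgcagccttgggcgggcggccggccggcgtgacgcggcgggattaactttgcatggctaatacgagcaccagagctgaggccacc
Thrb downstream start: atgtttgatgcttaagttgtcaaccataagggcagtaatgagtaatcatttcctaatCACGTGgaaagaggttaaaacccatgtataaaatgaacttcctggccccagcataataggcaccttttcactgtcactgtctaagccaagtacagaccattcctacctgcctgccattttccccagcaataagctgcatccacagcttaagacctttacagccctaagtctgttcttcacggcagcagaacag

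Dio1 was the member that differed most between genotypes. Its transcript with the highest mean RPKM, Dio1-007 (chromosome 4, 106964969 to 106979723, minus strand, 396 bases in 2 exons), measured 36.2, 37.7 and 39.2 RPKM in WT at CT0. In WT at CT12 it measured 44.5, 63.5 and 64.4 RPKM. In KO at CT0 it measured 3.90, 3.90 and 4.19 RPKM, and in KO at CT12 it measured 12.4, 19.1 and 15.5 RPKM. The order was KO at CT0, KO at CT12, WT at CT0 and WT at CT12, and no pair of groups overlapped. The means were 3.99 ± 0.165, 15.7 ± 3.32, 37.7 ± 1.47 and 57.4 ± 11.25 RPKM in that order (SD, n = 3). The precision of the KO values is limited by depth, since this transcript held 19 to 23 reads in the KO samples at CT0 and 262 to 284 in the WT samples. All 396 bases of Dio1-007 also lie in the other deposited Dio1 transcripts, so its RPKM does not show which form was most abundant.

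**Figure D1:**
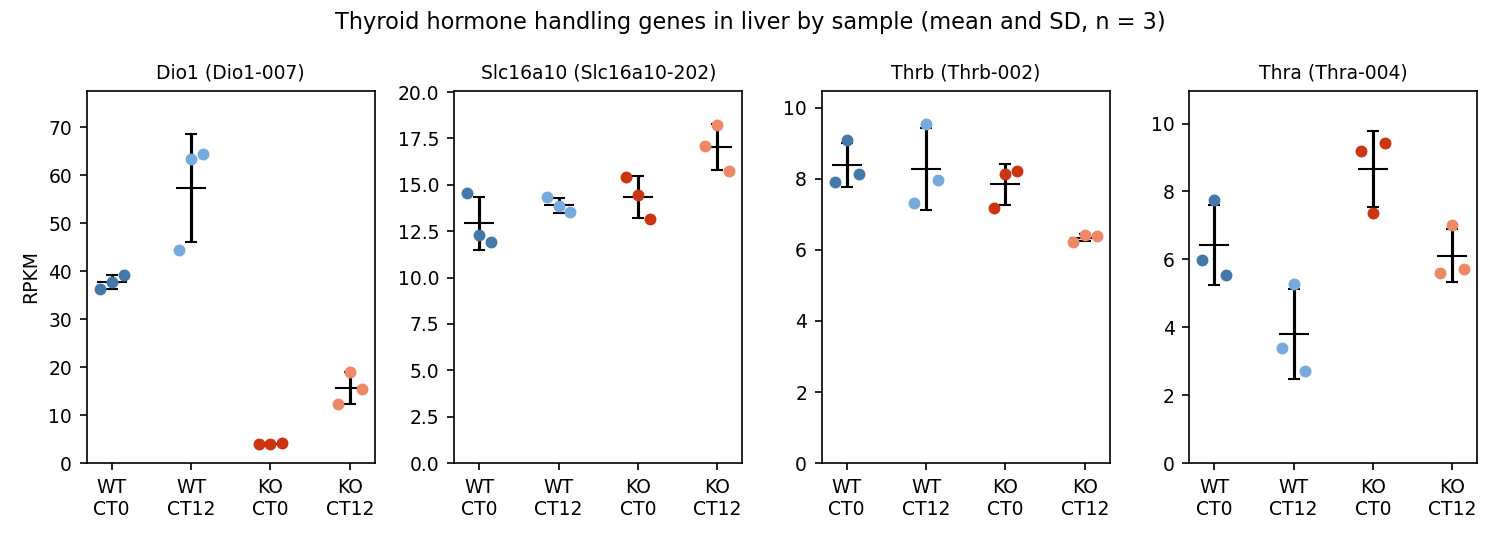
RPKM of the main transcript of Dio1, Slc16a10, Thrb and Thra in each of the 12 samples (points), with the group mean and SD (bars, n = 3), on linear axes that start at 0. The Dio1 groups are fully separated, from 3.90 RPKM in KO at CT0 to 64.4 RPKM in WT at CT12. Some groups of each other gene overlap, with Thra means from 3.79 RPKM in WT at CT12 to 8.66 RPKM in KO at CT0.

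Mean Dio1 was 9.44-fold higher in WT than in KO at CT0 and 3.66-fold higher at CT12. On the log2(RPKM + 1) scale of the fit, KO minus WT was -2.95 (SE 0.16) at CT0, -1.81 (SE 0.16) at CT12 and -2.38 (SE 0.11) over both times. Among all 10799 genes tested, 4.03% were called lower and 7.44% higher in KO over both times (limma, Benjamini-Hochberg adjusted p under 0.05). At CT0 0.843% were called lower and 1.02% higher, and at CT12 3.49% lower and 6.97% higher. Since these contrasts chose Dio1, nothing is read from its place among them.

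The level of Dio1 also depended on time in both genotypes. In WT it rose from CT0 to CT12 by 0.58 on the log2 scale (95% confidence interval 0.24 to 0.91, limma adjusted p = 0.034), and 3.71% of all genes were called higher and 7.88% lower at CT12 in WT. In KO it rose by 1.72 (interval 1.38 to 2.06, limma adjusted p = 0.00066), where 1.1% of all genes were called higher and 1.32% lower. The low KO values at CT0, which entered the choice of Dio1, also enter this rise, so its p is not independent of that choice. All 3 samples at CT12 exceeded all 3 at CT0 in each genotype. The adjusted p of the WT rise ranged from 0.010 to 0.127 when single samples were left out, and the call was lost when any WT sample at CT0, or replicate 2 or 3 of WT at CT12, was left out.

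The rise was larger in KO as a ratio and smaller as an amount. As a ratio of means it was 3.92-fold in KO and 1.52-fold in WT, and KO minus WT at CT12 exceeded KO minus WT at CT0 by 1.14 on the log2 scale (SE 0.22). This interaction is the difference of the contrasts that chose Dio1, so no p is given for it. Interactions were called positive in 1.07% and negative in 0.417% of all genes, and nothing is read from that for Dio1. In RPKM the mean gain was 19.74 in WT and 11.68 in KO, an order opposite to that of the ratios. Its size ranged from 0.97 to 1.29 when single samples were left out, and the KO values at CT0 rested on few reads.

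The 3 Dio1 transcripts start within the same first exon and gave like values. Dio1-001 (106964070 to 106979774, 1690 bases, 4 exons) is the one that holds the selenocysteine codon printed above. It contains all 396 bases of Dio1-007, which are 23.4% of its own. It measured 31.3, 34.1 and 34.3 RPKM in WT at CT0 and 43.1, 62.1 and 61.3 RPKM in WT at CT12. The KO values were 3.53, 3.91 and 3.87 RPKM at CT0 and 9.89, 19.2 and 11.7 RPKM at CT12. The transcript with the active site codon was thus low in the same samples, 8.82-fold below WT at CT0 and 4.08-fold below at CT12. Its rise with time was 0.70 in WT (limma adjusted p = 0.036) and 1.56 in KO (limma adjusted p = 0.0033), with all deposited transcripts in the fit. The corresponding interaction was 0.86 (SE 0.28) for Dio1-001 and 0.97 (SE 0.24) for Dio1-006 (632 bases, 3 exons). The 3 transcripts share exons, and how reads common to them were counted is not given in the sources used here, so they are not independent measurements.

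**Figure D2:**
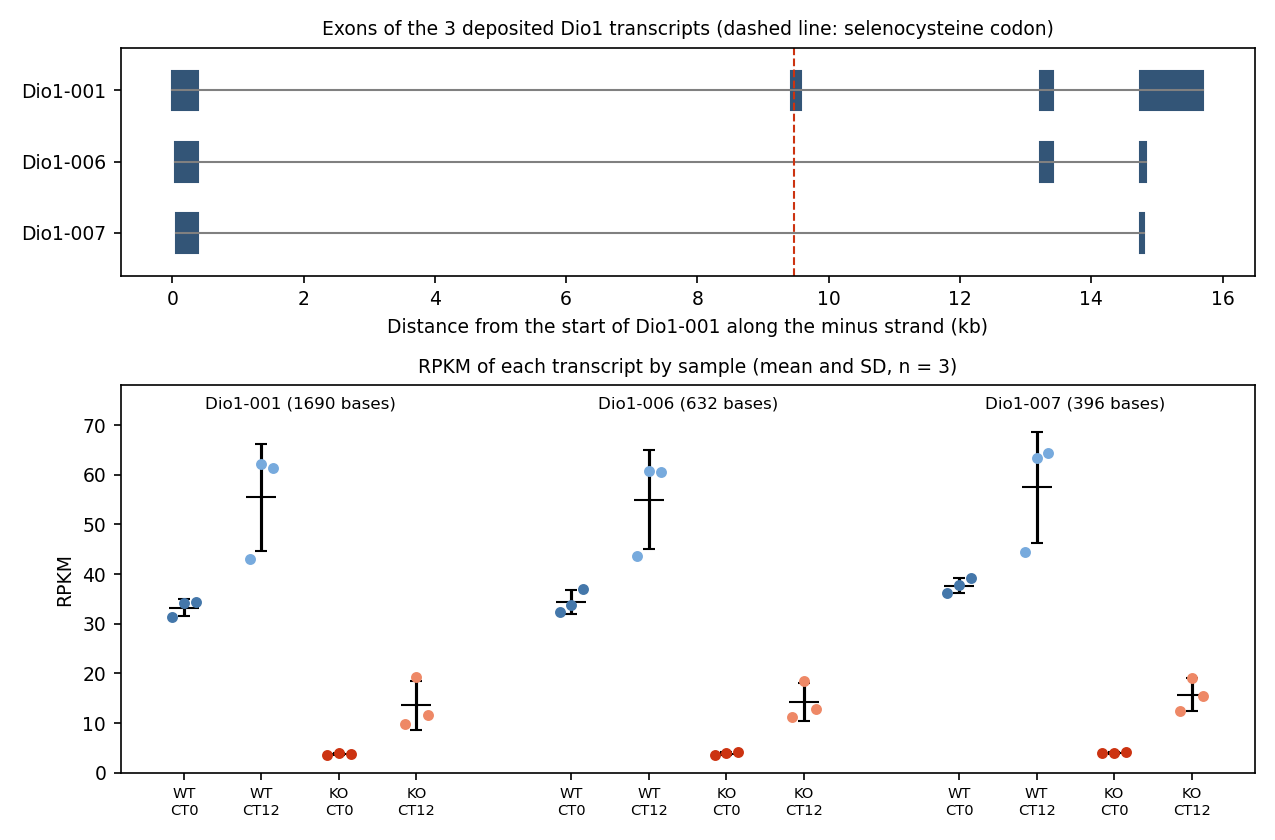
Top, exons (boxes) of the 3 deposited Dio1 transcripts against distance from the start of Dio1-001 in kb, with the selenocysteine codon as a dashed line. Bottom, RPKM of each transcript in the 12 samples (points) with group mean and SD (n = 3). Dio1-001, the transcript that crosses the codon, runs from 3.53 RPKM in KO at CT0 to 62.1 RPKM in WT at CT12, with the same order of groups as the other transcripts.

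Slc16a10, the T3 carrier MCT10, differed little between groups. Its single transcript (chromosome 10, 39753341 to 39862060, minus strand, 5394 bases) measured 14.5, 12.3 and 11.9 RPKM in WT at CT0 and 14.3, 13.9 and 13.5 RPKM in WT at CT12. In KO it measured 15.4, 14.5 and 13.2 RPKM at CT0 and 17.1, 18.2 and 15.8 RPKM at CT12. The KO samples at CT12 were above all others, and the other 3 groups overlapped. KO minus WT was 0.14 (SE 0.10) at CT0 and 0.27 (SE 0.10) at CT12 on the log2 scale. The time difference was 0.10 in WT (interval -0.11 to 0.31, limma adjusted p = 0.54) and 0.23 in KO (interval 0.02 to 0.44, limma adjusted p = 0.21). The interaction was 0.13 (interval -0.17 to 0.43, limma adjusted p = 0.76).

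Thrb, the main hepatic receptor gene, was lowest in KO at CT12. Its main transcript, Thrb-002 (chromosome 14, 18493474 to 18869073, plus strand, 4461 bases), measured 7.91, 9.09 and 8.15 RPKM in WT at CT0 and 7.31, 9.54 and 7.97 RPKM in WT at CT12. The KO samples had 7.17, 8.14 and 8.21 RPKM at CT0 and 6.23, 6.42 and 6.38 RPKM at CT12. The KO samples at CT12 lay below all others, and the other 3 groups overlapped. KO minus WT was -0.09 (SE 0.10) at CT0 and -0.33 (SE 0.10) at CT12.

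Between times, Thrb differed by -0.02 in WT (interval -0.25 to 0.20, limma adjusted p = 0.91) and by -0.27 in KO (interval -0.49 to -0.04, limma adjusted p = 0.18). Its interaction was -0.24 (interval -0.56 to 0.07, limma adjusted p = 0.54). Thrb-201 (5997 bases), which begins at the same start, and Thrb-001 (6081 bases), which begins at the downstream start whose window held CACGTG, had KO minus WT differences at CT12 of -0.31 (SE 0.10) and -0.29 (SE 0.10). Thrb-001 and Thrb-002 share most of their length, so these values do not measure use of either start separately.

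Thra, the gene of TRα, fell from CT0 to CT12 in WT. Its main transcript, Thra-004 (chromosome 11, 98614900 to 98629717, plus strand, 1240 bases), measured 5.97, 7.76 and 5.54 RPKM in WT at CT0 and 3.40, 5.27 and 2.71 RPKM in WT at CT12. In KO it measured 9.20, 7.36 and 9.43 RPKM at CT0 and 5.59, 7.004 and 5.72 RPKM at CT12. The WT samples at CT12 lay below all others, while KO at CT12 overlapped WT at CT0, which overlapped KO at CT0. KO minus WT was 0.39 (SE 0.18) at CT0 and 0.60 (SE 0.18) at CT12, so the values in KO were the higher ones where those of Dio1 were the lower.

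From CT0 to CT12, Thra fell by 0.66 in WT (interval -1.06 to -0.26, limma adjusted p = 0.039). In KO the difference was -0.44 (interval -0.84 to -0.04, limma adjusted p = 0.21), and the interaction of 0.21 (interval -0.35 to 0.78, limma adjusted p = 0.80) did not separate the genotypes. The WT call was lost when any of 5 of the 12 samples was left out, namely each WT sample at CT0 and replicates 1 and 3 of WT at CT12, with an adjusted p of up to 0.146.

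The end of Thra overlaps the end of Nr1d1, which encodes the clock repressor REV-ERBα on the opposite strand. Nr1d1 (98629246 to 98636647, minus strand) shares 130 bases, or 10.5%, of Thra-004 and 263 bases, or 10.7%, of Thra-001 (2452 bases). The library kit does not mark strand, so reads from either gene cannot be told apart there. Nr1d1 measured 2.04, 2.05 and 6.57 RPKM in WT at CT0 and 2.35, 2.95 and 1.56 RPKM in WT at CT12. The KO livers had 0.271, 0.310 and 0.801 RPKM at CT0 and 0.968, 1.61 and 1.56 RPKM at CT12. Nr1d1 was thus low in KO at CT0, where Thra was high.

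Thra-003 (98603187 to 98626425, 2246 bases) ends before Nr1d1 and shares no base with it, and 49.4% of its bases are also in Thra-004. It measured 4.03, 4.99 and 3.64 RPKM in WT at CT0 and 2.48, 3.43 and 1.89 RPKM in WT at CT12. The values in KO were 5.56, 4.97 and 6.10 RPKM at CT0 and 3.55, 4.10 and 3.55 RPKM at CT12. Its time difference in WT was -0.55 on the log2 scale (limma adjusted p = 0.034 with all transcripts in the fit), and KO minus WT was 0.37 (SE 0.11) over both times. Thra-003 had the same highest and lowest groups as Thra-004. It also holds 1110 of the 1240 bases of Thra-004, so these transcripts are not independent measurements. Thra-007 (535 bases), which also shares no base with Nr1d1, was not called in either time comparison. Its differences were -0.19 in WT (limma adjusted p = 0.71) and -0.32 in KO (limma adjusted p = 0.57). The part of the Nr1d1 overlap in the Thra values was not tested.

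**Figure D3:**
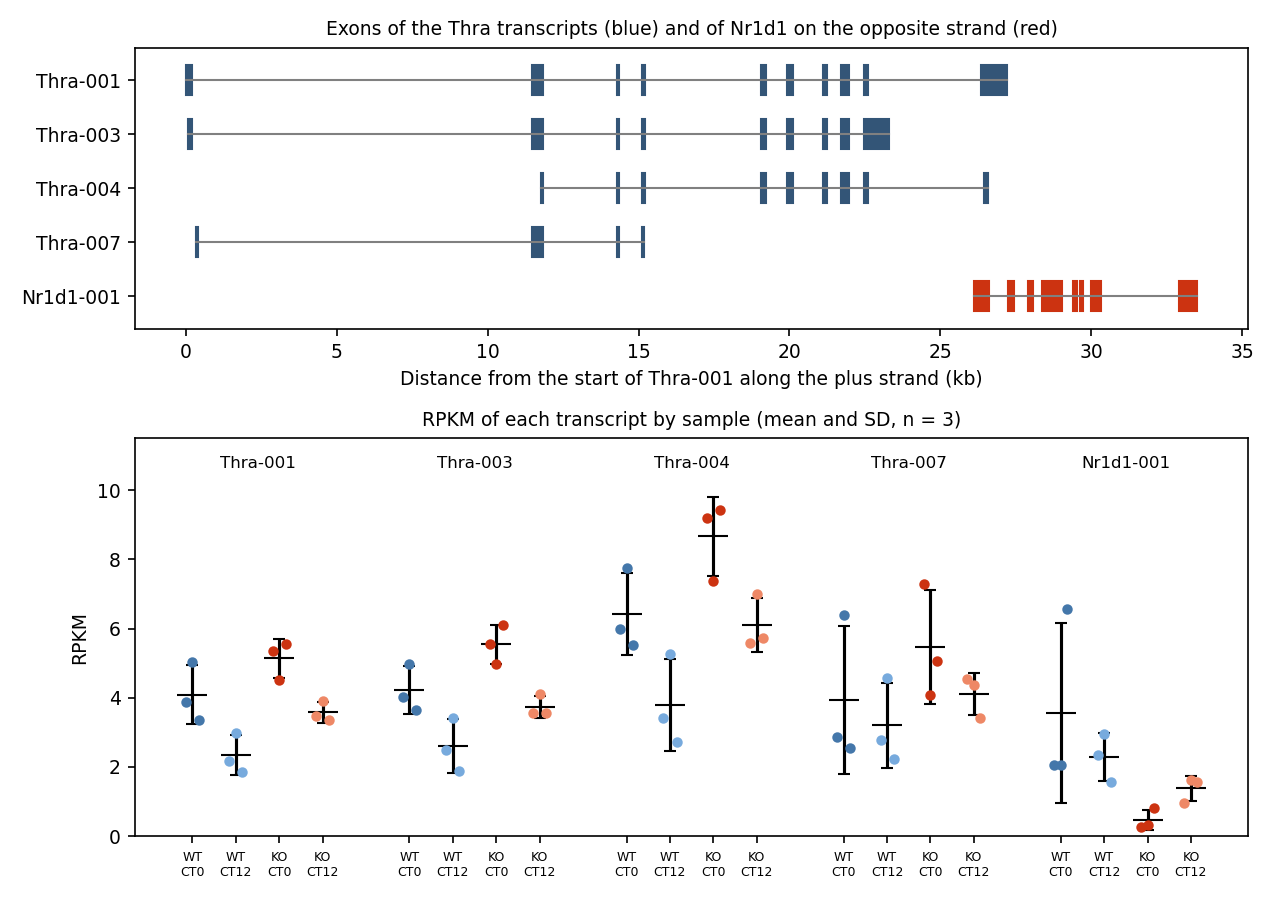
Top, exons of the 4 deposited Thra transcripts (blue) and of Nr1d1 on the opposite strand (red) against distance from the start of Thra-001 in kb. Bottom, RPKM of each in the 12 samples (points) with group mean and SD (n = 3). Thra-003, which stops short of Nr1d1, ranges from 1.89 RPKM in WT at CT12 to 6.10 RPKM in KO at CT0, and has the same highest and lowest groups as Thra-004.

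**Figure D4:**
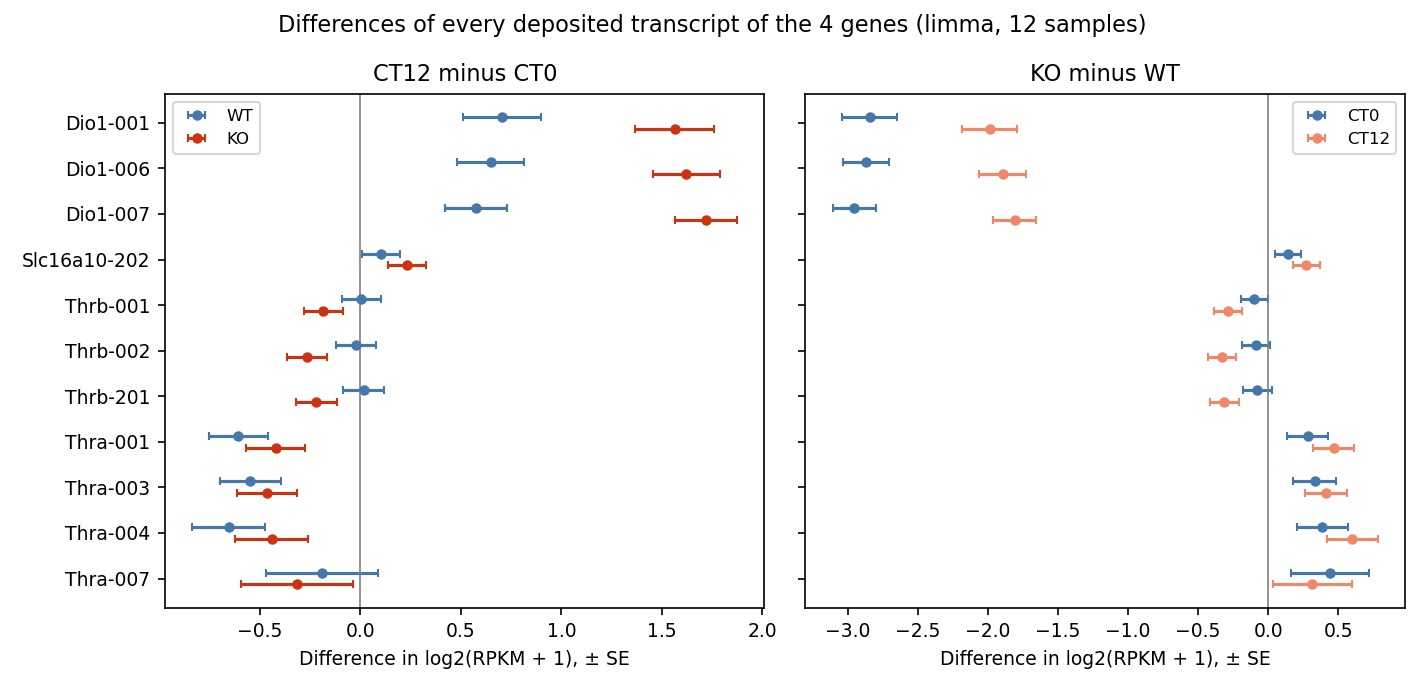
Differences in log2(RPKM + 1), with SE, of all 11 transcripts of the 4 genes, between times in each genotype (left) and between genotypes at each time (right). The Dio1 transcripts stand between -2.95 and -1.81 in KO minus WT, and the other transcripts lie within 0.60 of 0 on the right.

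The other genes of the pathway were taken from 7 lists of 85 genes, of which 82 had values and 73 were tested. Over both times 5 were called higher and 8 lower in KO, of 73, against the 7.44% and 4.03% of all genes. The median difference of the 73 genes was -0.03 and that of all genes was 0.04. At CT0 2 were higher and 5 lower, against 1.02% and 0.843% of all genes, and at CT12 4 were higher and 9 lower, against 6.97% and 3.49%. Between times 6 were higher and 4 lower at CT12 in WT, against 3.71% and 7.88% of all genes, and 3 were higher and 0 lower in KO, against 1.1% and 1.32%. The genes lower in KO include Ugt1a1, Ugt1a6a and Ugt1a9, which share their last exons and were counted separately. When single samples were left out, the CT0 calls of Ugt1a1 and Ugt1a9 were lost in 7 and 6 of 12 fits.

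Of the 8 tested transporters, Slco1a4 and Slc17a4 were higher and Slco1a1 was lower in KO over both times, against 7.44% and 4.03% of all genes. Slco1a4 was also called at CT0, where 1.02% of all genes were called higher. All 3 were called at CT12, where 6.97% of all genes were called higher and 3.49% lower. When single samples were left out, the Slco1a4 call was lost in 4 of 12 fits at CT0 and in 4 at CT12. At CT12 the Slco1a1 call was lost in 4 of 12 fits and that of Slc17a4 in 9. Slco1a4, an organic anion carrier that takes up T4 and T3, averaged 45.3 RPKM in WT and 85.0 RPKM in KO at CT0 and 69.5 and 114 RPKM at CT12, a difference of 0.79 over both times (limma adjusted p = 0.0016). Slc17a4, a carrier that also transports thyroid hormone, was higher by 0.97 (limma adjusted p = 0.026), a call lost without WT replicate 1 or 2 at CT0, WT replicate 3 at CT12 or KO replicate 3 at CT12 (adjusted p up to 0.063), and Slco1a1 fell by 0.51 (limma adjusted p = 0.017). Slco1b2, a hepatocyte uptake carrier of organic anions, was not called between genotypes (-0.13, limma adjusted p = 0.29).

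Of the 7 tested genes of deiodination, conjugation and binding, 6 were called by genotype over both times (2 higher and 4 lower, against 7.44% and 4.03% of all genes). At CT0 1 was called higher and 2 lower, against 1.02% and 0.843% of all genes. At CT12 1 was called higher and 4 lower, against 6.97% and 3.49%. The sulfotransferase genes divided, with Sult1d1 (0.65, limma adjusted p = 0.0042) and Sult1b1 (0.48, limma adjusted p = 0.011) higher and Sult1a1 (-0.71, limma adjusted p = 0.0036) lower in KO. The glucuronosyltransferase genes Ugt1a1 (-0.60, limma adjusted p = 0.00052), Ugt1a6a (-0.52, limma adjusted p = 0.00095) and Ugt1a9 (-0.59, limma adjusted p = 0.00042) were lower. Ugt2b1, the other such gene tested, was not called (0.18, limma adjusted p = 0.47). The difference of Sult1d1 was 1.06 at CT0 (limma adjusted p = 0.0084) and 0.24 at CT12 (limma adjusted p = 0.44), and that of Sult1a1 was -0.52 at CT0 (limma adjusted p = 0.20) and -0.91 at CT12 (limma adjusted p = 0.0072). The Ugt1a genes share their last exons, so their values may come from the same reads. Dio2, the deiodinase that makes T3 in other tissues, was listed at 0 in 10 of 12 samples and Dio3, which inactivates T3, in 8 of 12. Neither was tested, nor was Crym, a cytosolic T3-binding protein, at 0 to 0.493 RPKM.

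Among the 3 plasma carriers, Alb (albumin) was lower by 0.99 over both times (limma adjusted p = 3.6e-05). It averaged 36059 RPKM in WT and 19009 RPKM in KO at CT0, and 30907 and 14868 RPKM at CT12. Ttr (transthyretin) was not called between genotypes (0.07, limma adjusted p = 0.65), and Serpina7 (thyroxine-binding globulin) was called lower at CT12 in WT (-1.23, limma adjusted p = 0.024) but not between genotypes (0.07, limma adjusted p = 0.89). In KO the time difference of Serpina7 was -1.06 (limma adjusted p = 0.089), with an interaction of 0.16 (limma adjusted p = 0.92). Alb lost its call under quantile normalization, which gives the top gene of every sample the same value, and without the filter on low genes.

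Of the 18 tested genes of selenoprotein synthesis and other selenoproteins, Sepp1 was lower and Selm higher in KO, over both times and at CT12, and none was called at CT0. Of all genes, 4.03% were called lower and 7.44% higher over both times, 3.49% and 6.97% at CT12, and 0.843% and 1.02% at CT0. Sepp1, the plasma selenium carrier made by hepatocytes, averaged 2269 RPKM in WT and 1878 RPKM in KO at CT0 and 2581 and 1834 RPKM at CT12, a difference of -0.39 (limma adjusted p = 0.0049). Selm was near the filter on low values, between 0.105 and 2.24 RPKM in all samples (0.56, limma adjusted p = 0.045), and its call was lost without any of 9 of the 12 samples. The other 16 genes were not called between genotypes.

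None of the 17 receptor partners and coregulators was called between genotypes, where 7.44% of all genes were called higher and 4.03% lower over both times. Rxra, the main retinoid X receptor of liver, averaged 60.005 RPKM in WT and 48.8 RPKM in KO at CT0 and 73.7 and 65.0 RPKM at CT12 (-0.24, limma adjusted p = 0.081). Of the 3 factors known to act on the Dio1 promoter, Hnf4a (-0.15, limma adjusted p = 0.37) and Gata4 (0.09, limma adjusted p = 0.49) were not called between genotypes.

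Klf9, a T3-induced transcription factor of the Krüppel-like family, had the 1 interaction called among the 73 listed genes. It measured 17.8, 15.2 and 16.2 RPKM in WT at CT0 and 15.9, 15.7 and 16.8 RPKM in WT at CT12. In KO it measured 9.42, 11.6 and 11.7 RPKM at CT0 and 18.2, 18.1 and 18.2 RPKM at CT12. Klf9 was lower in KO at CT0 (-0.55, limma adjusted p = 0.012) and was not called at CT12 (0.16, limma adjusted p = 0.33), with an interaction of 0.71 (limma adjusted p = 0.021). Beside this 1 positive call of 73 listed genes, 1.07% of all genes were called positive. The interaction call was lost without WT replicate 1 or 3 at CT0, WT replicate 1 or 2 at CT12, or KO replicate 2 or 3 at CT12 (adjusted p up to 0.059). Dio1 and Klf9 were both lowest in KO at CT0, and at CT12 KO minus WT was -1.81 for Dio1 and 0.16 for Klf9. A link between these genes was not tested.

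Of the 18 tested genes known to respond to thyroid hormone, Cpt1a alone was called between genotypes over both times, as lower in KO. Of all genes, 4.03% were called lower and 7.44% higher. Cpt1a, the gate of mitochondrial fatty acid entry, averaged 58.1 RPKM in WT and 35.8 RPKM in KO at CT0 and 106 and 73.7 RPKM at CT12 (-0.60, limma adjusted p = 0.0028). Thrsp (Spot 14), a classical hepatic T3 target, was lower in KO at CT12 (-2.52, limma adjusted p = 0.035). It measured 348, 505 and 248 RPKM in WT and 105, 45.1 and 46.8 RPKM in KO at CT12. At CT0 the KO samples measured 912, 82.9 and 132.6 RPKM, so that replicate 1 stood apart, as it did for the lipid synthesis gene Me1 (139, 7.72 and 16.2 RPKM). Without that sample the adjusted p of Thrsp at CT12 was 0.00065 with the same difference, and the call was lost without any WT sample or KO replicate 2 or 3 at CT12 (adjusted p up to 0.112).

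**Figure D5:**
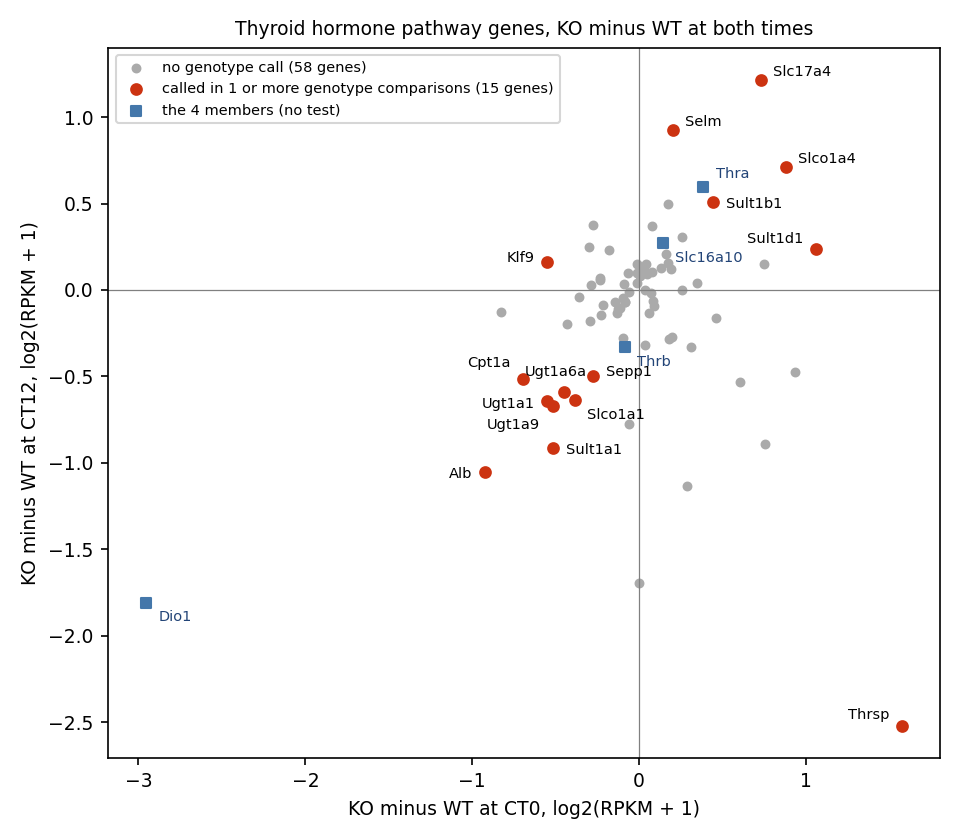
Difference KO minus WT in log2(RPKM + 1) at CT0 (horizontal) and at CT12 (vertical) of the 73 tested pathway genes, with the 15 called in at least 1 genotype comparison in red and the 4 members, which were not tested here, as blue squares. Dio1 lies at -2.95 and -1.81, Alb at -0.93 and -1.05, and Thrsp at 1.57 and -2.52.

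The genes most like each member were taken by Pearson's r of log2(RPKM + 1) with its main transcript over the 12 samples, which share group structure and libraries. For Dio1 they were Ces1f (0.976), Saa4 (0.962), Caln1 (0.953), Tlr5 (0.952) and Ctif (0.938). After removal of the group means the same genes gave 0.638, 0.104, 0.821, 0.853 and 0.658, so the likeness of Saa4 lay mostly between groups. Ces1f, a carboxylesterase gene, averaged 271 and 307 RPKM in WT and 118 and 161 RPKM in KO at CT0 and CT12. Saa4, a constitutive serum amyloid gene, averaged 77.5 and 110 RPKM in WT and 24.6 and 45.7 RPKM in KO. Ctif averaged 3.3 and 4.1 RPKM in WT and 2.2 and 2.8 RPKM in KO. Caln1 and Tlr5 were low, at 1.6 and 2.8 RPKM and 1.2 and 1.5 RPKM in WT. In KO they averaged 0.39 and 0.98 RPKM and 0.45 and 0.82 RPKM. Caln1 and Tlr5 thus reached the 1 RPKM filter through WT alone, where Dio1 was also higher, so little is read from their likeness. The genes most like Thra were Ino80b (0.949), Exph5 (0.934) and Cks2 (0.932). For Thrb they were Kalrn (0.939), Lima1 (0.891) and Rnf186 (0.863), and for Slc16a10 Rcc2 (0.93), Srp72 (0.913) and Leng1 (0.907).

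The samples held 11460000 to 19020000 reads, as recovered from the steps between low values, and replicates of a group correlated at 0.979 to 0.989. Arntl (Bmal1) averaged 15.9 RPKM in WT and 6.37 RPKM in KO at CT0, and 1.05 and 3.99 RPKM at CT12. Its level was thus below WT at CT0 and above WT at CT12. These values cover the whole transcript and do not resolve the floxed exon. The 6 hepatocyte markers summed to 37800 to 49800 RPKM in WT samples and 25500 to 34100 RPKM in KO samples, and without Alb to 11000 to 12600 RPKM and 9280 to 12900 RPKM, so the gap lay in Alb. The 5 Kupffer cell markers summed to 73.5 to 154 RPKM in WT and 76.6 to 153 RPKM in KO, the 4 endothelial markers to 50.6 to 91.3 and 42.8 to 100 RPKM, and the 4 stellate cell markers to 24.6 to 37.9 and 28.6 to 41.1 RPKM. The 4 bile duct markers summed to 0.708 to 3.64 RPKM in WT and 1.34 to 5.68 RPKM in KO, the 3 lymphocyte markers to 3.54 to 6.24 and 3.52 to 6.24 RPKM, and the 3 red blood cell markers to 82.4 to 275 and 153 to 213 RPKM. No marker was at 0 in all libraries. At CT12 the KO sums of the stellate cell markers (28.6 to 36.4 RPKM) and of the red blood cell markers (167 to 213 RPKM) lay above those of WT (24.6 to 27.8 and 82.4 to 145 RPKM), and the other cell types besides hepatocytes overlapped between genotypes at each time. Their part in the differences was not tested, and in bulk RNA fewer cells of a type cannot be told apart from less RNA per cell.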

How the data were processed

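Total RNA of mouse liver was made into TruSeq RNA v2 libraries. The authors deposited 1 table of RPKM values per sample, for 46585 Ensembl transcripts. The submitters' processing notes name TopHat2, bedtools 2.19.1 and the mm9 build without order or role, and how shared reads were counted is not given in the sources used here. RPKM values are not counts, so no count test was run. Samples were grouped by their titles.

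For each of 22322 genes the transcript with the highest mean RPKM was kept, and the 10799 genes whose group mean reached 1 RPKM in any of the groups were tested. Values were analysed as log2(RPKM + 1), which understates changes of low genes. With limma 3.58.1 (R 4.3.3), 4 group means were estimated from the 12 samples together (eBayes with a trend). Benjamini-Hochberg adjustment covered all tested genes, with a threshold of 0.05. The fit was tested on simulated data. Transcript coordinates and lengths came from GENCODE vM1, which held 95.5% of the transcripts. Multiplied by length, 95.9% to 96.3% of low values (under 50 reads) were whole reads within 0.05 of a read, which gave the depth. That depth limits low transcripts, where 1 read corresponds to 0.0263 to 0.0436 RPKM at a length of 2 kilobases. Tables were made with Python 3.11.15 and pandas 2.3.3.

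The members, gene lists and tests were chosen with earlier results of these data known. Named genes were the members, Nr1d1, Arntl, the list genes past the threshold in a genotype comparison or interaction (at most 4 per list and comparison) and the genes most like a member. Other genes named for their known role, or for a call between times, were chosen after their values were seen, and so was the alternative for Thra. The alternatives were another pseudocount (0.1), no filter, quantile normalization, the longest or all transcripts, a replicate block, a fit of just the 6 samples in question, and leave-one-out fits. For Thra a further alternative put Thra-003 in place of Thra-004.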

Additional observations from a re-analysis of the deposited data

Results flagged for a closer look

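The interaction term of the limma fit is set out here for Klf9, where it was called, and for Dio1, where it is given with no test. For Dio1 it was 1.145 on the log2 scale (SE 0.22), with KO minus WT at -2.95 at CT0 and -1.81 at CT12, and it is a description because those contrasts chose the gene. For Klf9 it was 0.714 (limma adjusted p = 0.021), with KO minus WT at -0.55 at CT0 and 0.16 at CT12. Klf9 was 1 of 73 listed genes so called, where 1.07% of all genes had a positive and 0.417% a negative interaction. Leaving out single samples gave adjusted p of 0.028 to 0.059 for Klf9.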

How the results depend on the processing

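Dio1 kept its rise with time in KO past the threshold under all 19 alternatives, and its rise and the fall of Thra in WT lost their calls under some. With a pseudocount of 0.1, KO minus WT of Dio1 at CT0 was -3.206. Without a filter, the time difference in WT was 0.58 for Dio1 (limma adjusted p = 0.11) and -0.66 for Thra (0.13), and the Dio1 interaction was 1.145. With quantile normalization, the time difference in WT was -0.58 for Thra (0.055) and 0.027 for Thrb, the opposite sign of a value near 0. With the longest transcript per gene, that of Thrb was 0.0045 and the Dio1 interaction was 0.86. With only the 6 samples compared, that of Thra was -0.66 (0.076). With single samples left out, the time difference in WT ranged from 0.49 to 0.75 for Dio1, from -0.87 to -0.49 for Thra and from -0.118 to 0.054 for Thrb, and the Dio1 interaction from 0.97 to 1.29. The cause of these shifts was not tested.

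The number of calls among the listed genes moved as well. The share of all genes called under each alternative is not given, so these counts are not read as a trait of the lists. Without a filter 1 was called between genotypes at CT0, 5 at CT12, 4 between times in WT and 0 in the interaction, and Alb had adjusted p of 0.98 to 1. With the longest transcript 18 were called between times in WT and 7 in KO, and with only the 6 samples compared 3 at CT0 and 1 between times in KO. Leaving out single samples gave 3 to 7 calls at CT0, 7 to 17 at CT12, 5 to 13 between times in WT, 3 to 5 in KO and 0 to 2 in the interaction. Under quantile normalization Alb differed by 0.

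Samples with the same replicate number in different groups did not deviate together (mean r of deviations 0.0082 over 18 pairs, from -0.066 to 0.139), so the numbers are not taken to pair them. With the replicate block, 2 listed genes rather than 1 were called in the interaction, and the Dio1 interaction was 1.145. The share of all genes called with the block is not given either.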
